A study of Mus musculus with 23 samples.

Results

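Transcripts of 9 complement genes were followed through sorted cells of mouse breast tumours. They are C1ra, C1s1, C4b and C2 of the classical pathway, C3, Cfb of the alternative pathway, the inhibitor Serping1, and the receptors C3ar1 and C5ar1. They were taken by symbol from the 48397 symbols of a table of raw read counts, and all 9 were found. The tumours were Met1-iRFP breast tumours in FVB mice. Met-1 is a mammary cancer line from a tumour of the MMTV-PyMT mouse, and iRFP, a near-infrared fluorescent protein, marks its cells. The iRFP-negative sort is labelled as cells of the tumour microenvironment (TME) and the iRFP-positive sort as cancer cells. There were 4 libraries of TME cells from exercised mice, 4 of TME cells from sedentary mice, 7 of cancer cells from exercised mice and 8 of cancer cells from sedentary mice. All 4 groups share the tumour line and the strain, and the labels give neither the type and length of exercise nor the age and sex of the mice. The labels do not say whether each library is a separate mouse, so a p-value here reflects only variation among these libraries, which may be technical in part.

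Complement is a cascade of plasma and tissue proteins that tags and lyses targets and recruits leukocytes. In the classical pathway the proteases C1r and C1s, bound to C1q, cleave C4 and C2 to form a C3 convertase, and in the alternative pathway factor B joins C3b to form another, while C1 inhibitor, the product of Serping1, blocks C1r and C1s. Cleavage of C3 and C5 releases the small peptides that the receptors encoded by C3ar1 and C5ar1 bind on myeloid cells. The liver makes most plasma complement, and stromal, myeloid and tumour cells are known to make components locally.

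Total counts were 22682216 to 37388479 in exercised TME libraries, 16307545 to 35958441 in sedentary TME libraries, 20073700 to 25526059 in exercised cancer libraries and 15924340 to 25563245 in sedentary cancer libraries. Markers of most other cell types separated the sorts, but those of B cells, scarce in both sorts, did not as a list. All 10 pan-leukocyte markers tested were higher in TME cells, with summed levels of 287 to 1789 CPM (counts scaled to library size) in exercised and 419 to 542 CPM in sedentary TME libraries, against 87.8 to 166 CPM in exercised and 67.7 to 109 CPM in sedentary cancer libraries, and none of the 10 was at 0 in any library. Exercised TME libraries 8 and 9 stood apart, at 1576 and 1789 CPM, with libraries 7 and 10 at 287 and 452 CPM. Mitochondrial genes took 42.2% and 14.5% of counts in sedentary TME libraries 4 and 6, and 1.86% to 8.63% in the other libraries. Epithelial markers did not mark the cancer sort. Epcam averaged 1.35 CPM in TME and 1.29 CPM in cancer libraries, Krt8 averaged 0.227 and 0.228 CPM, and Cdh1 averaged 3.65 and 0.513 CPM, so these 3 defining transcripts were near 0 in the cells labelled as cancer cells. Krt18 averaged 64.1 CPM in TME and 82.5 CPM in cancer libraries and Wfdc2 averaged 311 and 300 CPM, and the 10 markers summed to 241 to 442 CPM in exercised TME, 313 to 533 in sedentary TME, 280 to 406 in exercised cancer and 322 to 558 in sedentary cancer libraries. Of 11 fibroblast markers 9 were higher and 1 was lower in TME cells, with a median log2 fold change of 2.89. Col1a2 averaged 252 CPM in TME and 9.18 CPM in cancer libraries and Col1a1 averaged 271 and 21.3 CPM, whereas Pdgfra averaged 338 and 411 CPM and Dpt averaged 176 and 179 CPM.

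The genes fall into a set present in both sorts and a set found mainly in TME cells. C3, C1ra and C1s1 did not differ between the sorts past the threshold, C4b was 1.37-fold higher in TME cells, and Serping1, C3ar1 and C5ar1 were higher in TME cells by 3.57 to 4.37 on the log2 scale. Of the 7 genes that passed the filter on low counts in each sort taken alone, these 4 were higher in TME cells at an adjusted p under 0.05 and none was lower. Of all 14775 genes that passed in both sorts, 23.5% were higher in TME cells, and of all 17503 genes tested 52.6% were called and 25.3% were higher. C2 and Cfb passed the filter only through the TME libraries, where they are higher, so they are described by their levels and no call is drawn from them. The test was edgeR's quasi-likelihood test of the mean difference over both treatments, TME over cancer, on 23 libraries, with Benjamini-Hochberg adjustment over all genes tested. The exercise effects below come from separate fits of the same test on the 8 TME or the 15 cancer libraries, and the difference of these effects from a contrast on all 23. The median log2 fold change over all genes tested was -0.01. How many of all genes have no overlap between the sorts was not counted, so a lack of overlap is given below as a description only. In bulk samples, fewer cells of a type and less RNA per cell cannot be told apart. The part of cancer cell RNA in the counts of the TME sort was not tested.

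**Figure D1:**
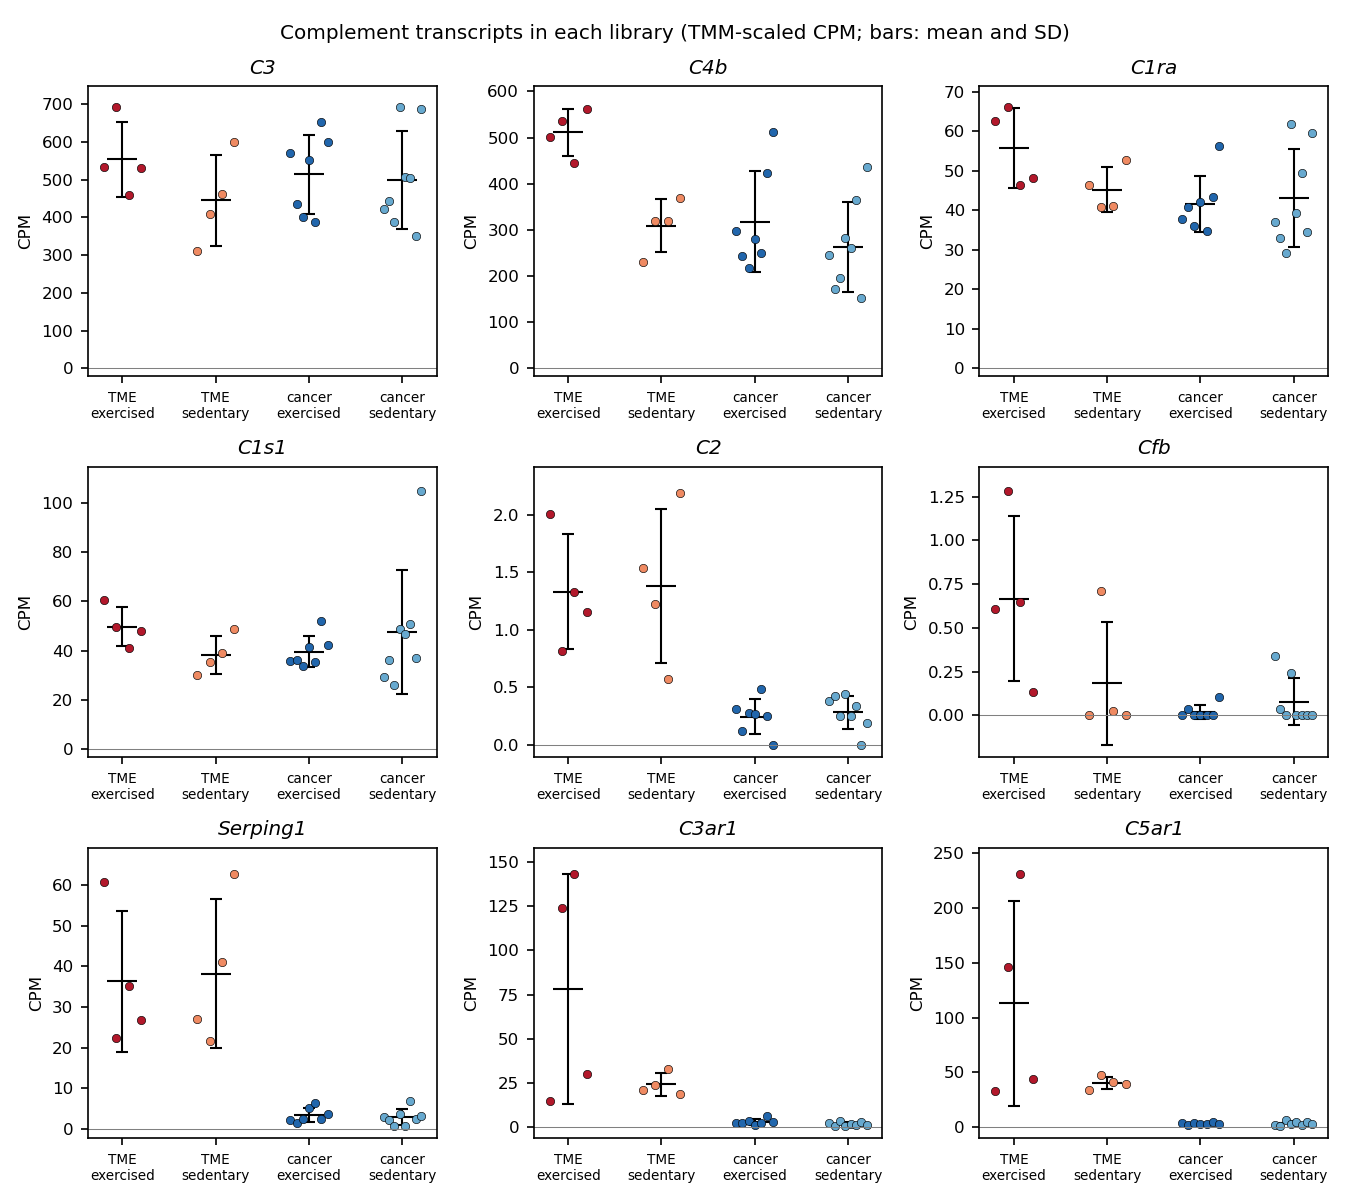
Level of each of the 9 transcripts in every library, as CPM scaled by TMM (trimmed mean of M-values), on linear axes that differ between genes, with 1 point per library and bars for the mean and SD of each group. C3, C4b, C1ra and C1s1 have overlapping ranges in TME and cancer cells, whereas Serping1, C3ar1 and C5ar1 are low in every cancer library.

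C1ra and C1s1, which encode the proteases of the C1 complex, lie next to each other in mm10, C1ra at chr6:124512405-124523443 on the plus strand and C1s1 at chr6:124530345-124542359 on the minus strand. C1ra was at 62.7, 66.2, 46.3 and 48.1 CPM in exercised TME libraries 7, 8, 9 and 10 and at 46.5, 40.7, 41.1 and 52.7 CPM in sedentary TME libraries 4, 6, 9 and 10. In cancer libraries it ran from 34.7 CPM through a median of 40.7 to 56.2 CPM after exercise, and from 29.3 CPM through a median of 38.1 to 61.9 CPM in sedentary mice. The sorts overlapped, with 2 of 8 TME libraries above every cancer library, and the log2 fold change of 0.24 ± 0.12 (SE) had an adjusted p of 0.0907. That call depended on the setting, since C1ra passed the threshold in 11 of 32 alternatives, among them DESeq2 (0.29 ± 0.13, adjusted p = 0.0372) and the fits without exercised TME library 9 or 10, sedentary TME library 6 or 9, exercised cancer library 10, or sedentary cancer library 5 or 10 (0.29 to 0.32).

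C1s1 was at 60.4, 49.8, 40.9 and 48.2 CPM in exercised TME libraries and at 30.0, 35.6, 39.1 and 48.7 CPM in sedentary TME libraries. Cancer libraries ran from 33.7 CPM through a median of 36.4 to 52.1 CPM after exercise, and from 26.1 CPM through a median of 41.9 to 105 CPM in sedentary mice. No TME library lay above every cancer library, because sedentary cancer library 10, at 105 CPM, was far above the 50.7 CPM of the next in its group. The log2 fold change was 0.01 ± 0.18, with a 95% interval from -0.38 to 0.39 and an adjusted p of 0.978. The 2 protease transcripts kept a similar ratio, with C1ra at a median of 108% of C1s1 in exercised TME, 111% in sedentary TME, 106% in exercised cancer and 95.4% in sedentary cancer libraries. Sedentary cancer library 10 had the lowest ratio, 56.6%.

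C4b and C2 encode the components that C1s cleaves, and both lie in the class III region of the major histocompatibility complex, C4b at chr17:34728380-34743882 and C2 at chr17:34862604-34898265, both on the minus strand. C4b was at 501, 536, 445 and 562 CPM in exercised TME libraries and at 230, 319, 320 and 369 CPM in sedentary TME libraries. Cancer libraries ran from 218 CPM through a median of 279 to 513 CPM after exercise, and from 152 CPM through a median of 252 to 436 CPM in sedentary mice. TME and cancer libraries overlapped, and 2 of 8 TME libraries lay above every cancer library. C4b was higher in TME cells by 0.45 ± 0.18 on the log2 scale (adjusted p = 0.0344). The call was lost in 6 of 32 alternatives. Without exercised cancer library 2, 4 or 7 or sedentary cancer library 4 the adjusted p was 0.0501 to 0.0508 and the log2 fold change 0.42 to 0.43, with no filter on low counts they were 0.0692 and 0.46, and without exercised TME libraries 8 and 9 they were 0.05 and 0.53.

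C2 was scarce, with 25 to 56 counts in exercised TME, 17 to 49 in sedentary TME, 0 to 11 in exercised cancer and 0 to 11 in sedentary cancer libraries. It was at 2.01, 0.819, 1.33 and 1.15 CPM in exercised TME libraries and at 1.54, 1.22, 0.574 and 2.19 CPM in sedentary TME libraries, against medians of 0.269 CPM in exercised and 0.294 CPM in sedentary cancer libraries. Every TME library lay above every cancer library, and mean C2 in cancer cells came to 19.5% of that in TME cells.

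C3, the component on which all pathways converge, lies at chr17:57203970-57228136 on the minus strand and was the most abundant of the 9 by length. It was at 533, 693, 458 and 530 CPM in exercised TME libraries and at 311, 408, 461 and 600 CPM in sedentary TME libraries. In cancer libraries it ran from 387 CPM through a median of 552 to 653 CPM after exercise, and from 350 CPM through a median of 474 to 692 CPM in sedentary mice. The 4 groups overlapped throughout, and mean C3 in cancer cells was 101% of that in TME cells. The log2 fold change was -0.04 ± 0.13, with a 95% interval from -0.31 to 0.23 and an adjusted p of 0.835.

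Per kilobase of exon, C3 stood at 108 ± 19.3 CPM in exercised TME cells, 86.5 ± 23.4 in sedentary TME cells, 99.9 ± 20.4 in exercised cancer cells and 97.1 ± 25.1 in sedentary cancer cells (SD). C4b followed at 89.7 ± 8.89, 54.3 ± 10.2, 55.8 ± 19.2 and 46.2 ± 17.1 CPM per kilobase in the same groups. C3 exceeded C4b in every library of each group, although the ranges of the 2 genes overlapped between libraries. In cancer cells C1ra and C1s1 came next on this scale, with means of 12.6 to 15.2, and did not separate from each other, and Serping1, C5ar1 and C3ar1 were all at 0.426 to 1.47 CPM per kilobase. In TME cells, C5ar1 (44.1 exercised, 15.8 sedentary), Serping1 (15.6 and 16.4), C1ra (18.7 and 15.2), C1s1 (15.9 and 12.3) and, in exercised mice, C3ar1 (18.1) had overlapping ranges. C2 and Cfb were last in every group, at 0.357 CPM per kilobase or less over all their exon bases. Much of their exon sequence is shared with another gene, as given below. Over the exon bases of their own they were still last in every group, at 1.16 CPM per kilobase or less. On that scale Cfb (1.16) had a higher mean than C2 (0.646) in exercised TME cells.

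Cfb, which encodes the protease of the alternative pathway convertase, lies beside C2 at chr17:34856374-34862518 on the minus strand. It had 3 to 39 counts in exercised TME libraries, at 0.611, 1.28, 0.651 and 0.133 CPM in libraries 7, 8, 9 and 10, and 0 to 18 counts in sedentary TME libraries, at 0, 0.711, 0.0261 and 0 CPM in libraries 4, 6, 9 and 10. It had no count in 5 of 7 exercised and 5 of 8 sedentary cancer libraries, with at most 2 and 8 counts in the others. Exercised TME libraries all lay above exercised cancer libraries, and sedentary TME and cancer libraries overlapped. The fitted log2 fold change between the sorts was 3.03 ± 0.79, and 1.34 ± 1.39 without sedentary TME library 6.

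Some of these counts are uncertain from the gene models. In the GENCODE M21 annotation of mm10, 79.5% of the exon bases of Cfb and 42.8% of those of C2 also belong to the readthrough gene Gm20547 on the same strand. Gm20547 had 0 counts in all 23 libraries. C1s1 shares 18.4% of its exon bases with the antisense gene Gm16567, likewise at 0 counts in all libraries. No source used here says whether reads in shared bases were dropped or given to C2, Cfb and C1s1, so levels of C2 and Cfb may be understated. Near-identical paralogs add to this, as 34.6% of the 50-base stretches of C4b transcripts occur in C4a, 48.0% of those of C1ra in C1rb and 21.8% of those of C1s1 in C1s2. These paralogs had few counts of their own, with C4a at 1.81% to 4.86% of C4b, C1rb at 1.58% to 9.86% of C1ra and C1s2 at 2.42% to 12.2% of C1s1. C3, Serping1, C3ar1 and C5ar1 share no such stretch with another gene.

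Promoter sequences of 5 of the 9 genes were matched in RefSeq GRCm38.p6, and C4b, C2, Cfb and Serping1 were not. Those of the 3 genes present at like levels in both sorts, C3, C1ra and C1s1, are shown because their transcripts also moved together between libraries. Each is the 250 bases upstream of the RefSeq start site, 5′ to 3′ on the strand of the gene, at chr17:57228137-57228386 (minus), chr6:124512371-124512620 (plus) and chr6:124542360-124542609 (minus, the outer of 2 annotated starts). The RefSeq starts of C3 and C1s1 are those of the GENCODE models given above, but that of C1ra lies 216 bases downstream of its GENCODE start, so 216 of the 250 bases shown for C1ra lie inside the GENCODE gene. Capitals mark matches, on either strand, to TTNNGNAA, a loose form of the site of C/EBP factors.
C3: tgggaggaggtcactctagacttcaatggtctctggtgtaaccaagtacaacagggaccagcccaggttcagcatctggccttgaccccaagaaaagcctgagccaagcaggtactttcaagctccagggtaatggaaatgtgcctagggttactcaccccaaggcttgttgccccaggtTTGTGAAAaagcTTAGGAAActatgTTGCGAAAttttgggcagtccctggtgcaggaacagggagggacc
C1ra: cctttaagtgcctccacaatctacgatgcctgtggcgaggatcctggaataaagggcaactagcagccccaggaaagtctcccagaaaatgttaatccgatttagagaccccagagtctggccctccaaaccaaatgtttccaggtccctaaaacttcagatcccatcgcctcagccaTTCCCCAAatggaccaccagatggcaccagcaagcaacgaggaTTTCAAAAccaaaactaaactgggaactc
C1s1: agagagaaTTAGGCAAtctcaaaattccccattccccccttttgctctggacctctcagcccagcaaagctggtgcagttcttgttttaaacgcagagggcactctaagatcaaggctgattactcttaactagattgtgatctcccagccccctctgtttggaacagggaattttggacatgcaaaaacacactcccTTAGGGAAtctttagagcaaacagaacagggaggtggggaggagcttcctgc
C3 held 3 matches, starting 70, 58 and 45 bases before the RefSeq start site, C1ra held 2 and C1s1 held 2. The window of the inner C1s1 start held 1 match. C5ar1 held 1 match and C3ar1 held none. The RefSeq start of C5ar1 lies 202 bases downstream of its GENCODE start, so 202 bases of its window lie inside the GENCODE gene. The motif occurs in 36.8% of 32851 mouse promoter windows of the same length, so single matches are common. The interferon motifs TTCNNNGAA (GAS), found in 7.0% of windows, and the core of the interferon-stimulated response element, found in 3.0%, had no match in the 5 promoters searched on both strands.

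Serping1, the C1 inhibitor gene at chr2:84765387-84775444 on the minus strand, was a TME transcript. It was at 60.9, 22.3, 35.2 and 26.7 CPM in exercised TME libraries and at 27.1, 21.6, 41.2 and 62.8 CPM in sedentary TME libraries. Cancer libraries ran from 1.49 CPM through a median of 2.44 to 6.37 CPM after exercise, and from 0.757 CPM through a median of 2.69 to 6.91 CPM in sedentary mice. The sorts did not overlap. Its log2 fold change was 3.57 ± 0.32 (adjusted p = 1.14e-08), 11.8-fold, and mean Serping1 in cancer cells was 8.36% of that in TME cells. The inhibitor thus differed between the sorts where its targets C1ra and C1s1 stood at 83.8% and 99.4% on the same measure.

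The receptors had the largest differences of the 9 genes between the sorts. C3ar1, at chr6:122847138-122856161 on the minus strand, was at 14.8, 124, 143 and 30.2 CPM in exercised TME libraries 7, 8, 9 and 10 and at 20.8, 24.1, 33.2 and 18.8 CPM in sedentary TME libraries 4, 6, 9 and 10. In cancer libraries it ran from 1.34 CPM through a median of 2.66 to 6.61 CPM after exercise, and from 0.878 CPM through a median of 1.66 to 3.33 CPM in sedentary mice. Its log2 fold change was 4.17 ± 0.35 (adjusted p = 5.44e-09) and the sorts did not overlap.

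C5ar1, at chr7:16246743-16259540 on the minus strand, was at 32.7, 146, 231 and 43.9 CPM in exercised TME libraries and at 34.3, 47.7, 41.1 and 39.6 CPM in sedentary TME libraries. In cancer libraries it ran from 1.68 CPM through a median of 3.03 to 4.43 CPM after exercise, and from 1.37 CPM through a median of 2.84 to 6.82 CPM in sedentary mice. Its log2 fold change was 4.37 ± 0.31 (adjusted p = 5.5e-10), again without overlap. Mean levels in cancer cells were 4.77% of those in TME cells for C3ar1 and 4.26% for C5ar1. Over the pan-leukocyte markers this share had a median of 7.09% and ran from 3.26% to 64.3%, and over 12 macrophage markers it had a median of 5.20% and ran from 2.28% to 77.1%. The medians were 3.19% for mast cell, 9.89% for neutrophil and 17.3% for T and NK cell markers, and 6.43% for endothelial, 13.7% for fibroblast and 22.1% for pericyte markers. The 6 B cell markers, scarce in both sorts, had a median of 110% and ran from 5.34% to 436%. The part of leukocyte RNA in the receptor counts of the cancer sort was not tested.

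**Figure D2:**
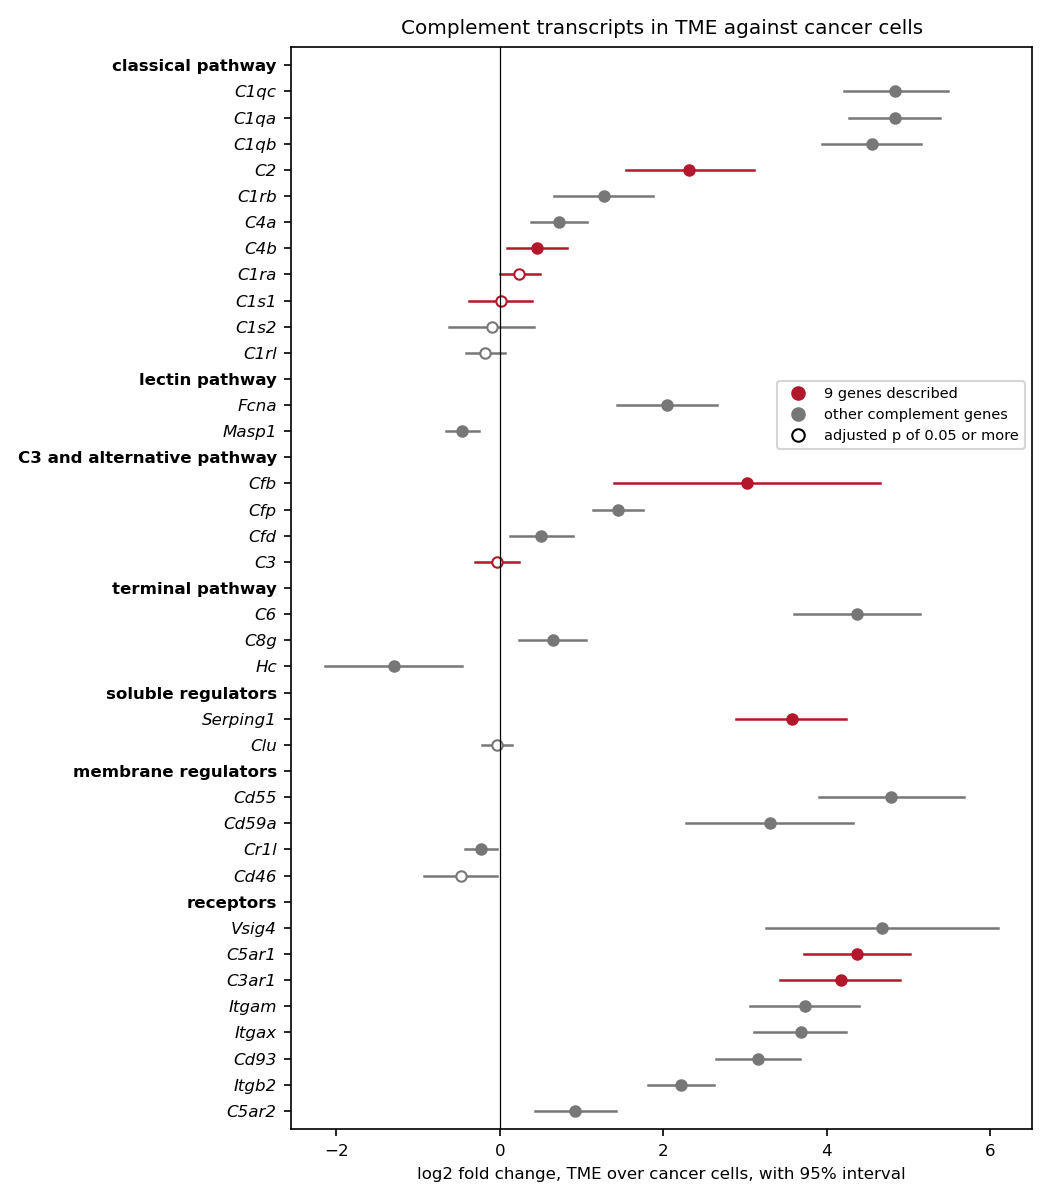
Log2 fold change, TME over cancer cells, with its 95% interval for 34 of the 35 complement genes tested, grouped by role. Red marks the 9 genes described and grey the other complement genes. Open points have an adjusted p of 0.05 or more, and C2, Cfb and 3 of the other genes passed the filter on low counts only through the TME libraries. The receptors lie to the right of 0 throughout, and C3, C1ra and C1s1 lie near 0.

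Of 48 other complement genes, 26 were tested and 23 passed the filter on low counts in both sorts. Of these 23, 16 were higher and 3 lower in TME cells, with a median log2 fold change of 1.27 against -0.04 over all 14775 such genes. The recognition subunits of C1 were strongly higher in TME cells, C1qc by 4.84 ± 0.30, C1qa by 4.83 ± 0.27 and C1qb by 4.55 ± 0.29 on the log2 scale, so subunits of the same complex differed in distribution, with C1ra and C1s1 in both sorts. All 7 receptors that passed in both sorts were higher, including Itgax, a subunit of complement receptor 4 (3.68 ± 0.27), Cd93 (3.16 ± 0.25) and Itgb2, the beta chain shared by complement receptors 3 and 4 (2.22 ± 0.20). In the alternative pathway Cfp, which encodes properdin, was higher by 1.44 ± 0.15 and Cfd, which encodes factor D, by 0.50 ± 0.19. The membrane regulators Cd55 and Cd59a passed the filter only through the TME libraries. Cd55 averaged 4.06 CPM in exercised and 2.79 CPM in sedentary TME cells, against 0.175 CPM in exercised and 0.0769 CPM in sedentary cancer cells, and Cd59a averaged 1.54, 1.85, 0.212 and 0.127 CPM in the same groups. The 3 lower genes were Hc, which encodes C5 (-1.30 ± 0.41), Masp1, a lectin pathway protease (-0.46 ± 0.10), and the membrane regulator Cr1l (-0.23 ± 0.09). Hc was scarce, averaging 0.448 CPM in exercised and 0.181 CPM in sedentary TME cells. In cancer cells Hc averaged 0.841 CPM after exercise and 0.645 CPM in sedentary mice. C6 of the terminal pathway (4.37 ± 0.37), C8g (0.65 ± 0.20) and the lectin Fcna (2.04 ± 0.30) were higher.

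Within groups, the transcripts varied in 2 blocks. After centring on the mean of each group, Pearson r of log2 CPM over the 23 libraries was 0.73 to 0.79 for every pair among C3, C4b, C1ra and C1s1. Over the cancer libraries alone these pairs gave 0.72 to 0.84. Over the TME libraries alone C1ra gave 0.20 with C4b, 0.55 with C3 and 0.59 with C1s1, and the pairs among C3, C4b and C1s1 gave 0.76 to 0.87. C3ar1 and C5ar1 gave 0.82 over all libraries, 0.67 in cancer and 0.96 in TME libraries, while r between these receptors and the 4 components was -0.28 to -0.02. These values describe libraries that share a depth and a normalization, and were given no test.

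**Figure D3:**
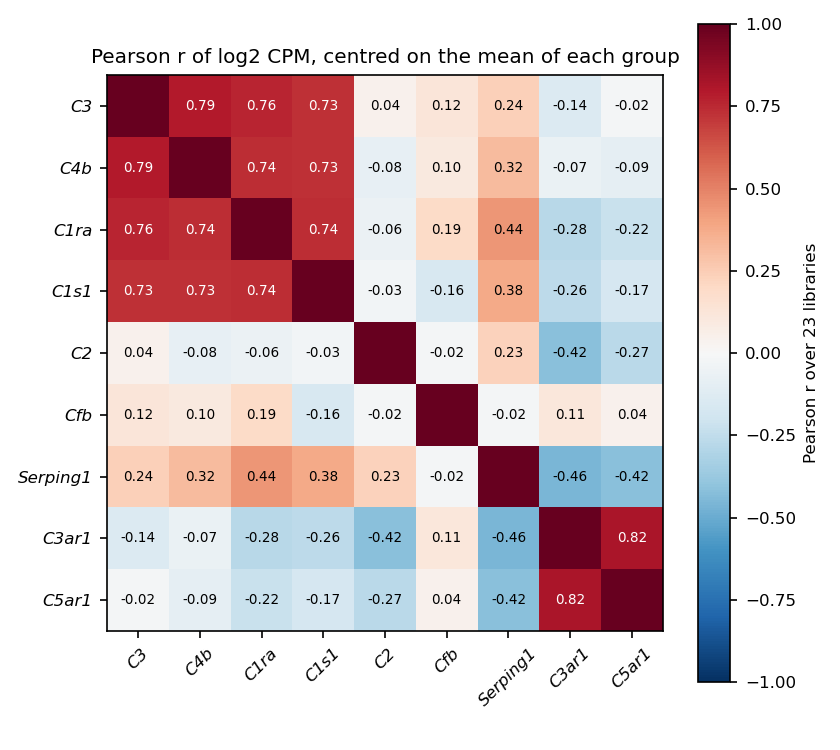
Pearson r between the 9 transcripts over 23 libraries, from log2 CPM centred on the mean of each of the 4 groups, on a colour scale from -1 to 1. C3, C4b, C1ra and C1s1 form a block with r of 0.73 to 0.79, and C3ar1 with C5ar1 form another at 0.82.

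The genes most like each of them by the same measure, among 10888 candidates, differed by block. C4b was nearest to H2-D1 (r = 0.83), H2-T23 (0.82), both class I histocompatibility genes, and Nos2 (0.82), the inducible nitric oxide synthase. Over the TME libraries alone these 3 values were 0.69, 0.64 and 0.47. C1s1 was nearest to Tapbp (0.85), which encodes tapasin of the peptide loading complex, H2-D1 (0.85) and H2-T23 (0.82). In TME libraries alone C1s1 gave 0.96, 0.88 and 0.40 with them. C1ra was nearest to Psmb10 (0.87), an immunoproteasome subunit, Edf1 (0.86) and Fau (0.86), and C3 to Slc24a3 (0.82), Il17rc (0.80), a subunit of the interleukin-17 receptor, and Hlf (0.79). Serping1 was nearest to the collagen genes Col1a2, Col1a1 and Col5a2 (0.81 each). C3ar1 was nearest to the leukocyte genes Lcp1, Apbb1ip and Cd53 (0.92 each), and C5ar1 to Il10ra (0.91) and Nxpe5 (0.89). Without exercised TME libraries 8 and 9 these were 0.84, 0.88 and 0.83 for C3ar1, and 0.86 and 0.78 for C5ar1. For C2 the highest values were 0.70 to 0.72 and for Cfb 0.74 to 0.80, at counts too low to read. H2-D1 and H2-T23 belong to a family of near-identical genes, and their counts are uncertain.

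Across the 15 cancer libraries, 7 of the genes were set against 3 lists, giving 21 relations tested by 100000 permutations. C4b followed the mean level of 22 interferon-gamma response genes, with Pearson r = 0.69 (permutation p = 0.00427, adjusted 0.0224) and Spearman rho = 0.81 (permutation p = 0.0005, adjusted 0.0105), and r was 0.60 without the 2 libraries farthest from the median of that list. Within treatments, r was 0.38 in the 7 exercised and 0.81 in the 8 sedentary libraries. C1s1 gave r = 0.78 (permutation p = 0.00049, adjusted 0.00567) and rho = 0.71 (permutation p = 0.00419, adjusted 0.0189), with r = 0.50 without the 2 farthest libraries, 0.35 in exercised and 0.98 in sedentary libraries. C1ra gave r = 0.67 (permutation p = 0.00623, adjusted 0.0262) and rho = 0.71 (permutation p = 0.0036, adjusted 0.0189), with 0.42 without the 2 farthest libraries, 0.06 in exercised and 0.88 in sedentary libraries. C3 gave r = 0.61 (permutation p = 0.0155, adjusted 0.0465) and rho = 0.61 (permutation p = 0.0176, adjusted 0.0528), with 0.42 without the 2 farthest libraries, 0.10 in exercised and 0.83 in sedentary libraries. In each of the 4 genes r was lower in the exercised than in the sedentary libraries, a difference that was not tested, and for C1ra and C3 it was near 0 in the exercised libraries. For C1s1, C1ra and C3 the pooled value rests in part on the 2 farthest libraries.

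Serping1 followed the fibroblast markers in the cancer sort, with r = 0.78 (permutation p = 0.00081, adjusted 0.00567), rho = 0.73 (permutation p = 0.00276, adjusted 0.0189), r = 0.59 without the 2 farthest libraries, and 0.81 in exercised and 0.89 in sedentary libraries. C3ar1 followed the pan-leukocyte markers, with r = 0.77 (permutation p = 0.00077, adjusted 0.00567), rho = 0.64 (permutation p = 0.0126, adjusted 0.0442), r = 0.48 without the 2 farthest libraries, and 0.95 in exercised and 0.41 in sedentary libraries. C3ar1 ran against the fibroblast markers, with r = -0.65 (permutation p = 0.00819, adjusted 0.0287), rho = -0.70 (permutation p = 0.00451, adjusted 0.0189) and r = -0.61 without the 2 farthest libraries, and -0.47 in exercised and -0.76 in sedentary libraries. The other 14 relations did not pass on Pearson r.

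**Figure D4:**
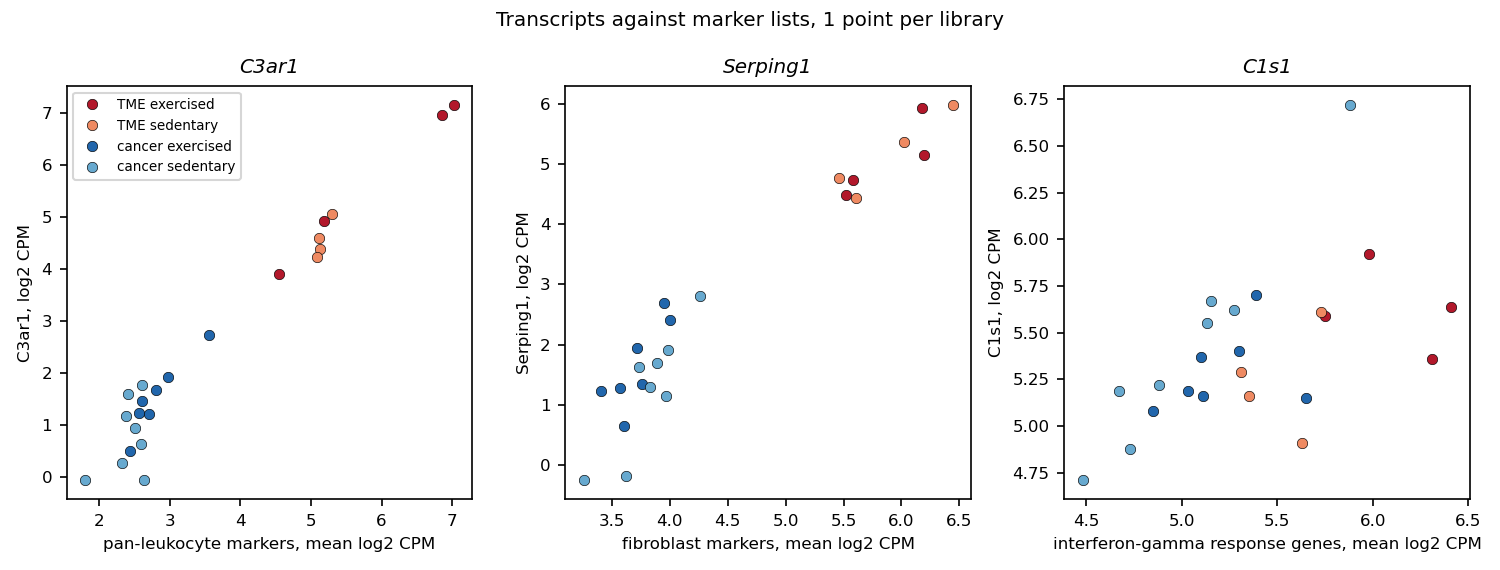
Log2 CPM of C3ar1, Serping1 and C1s1 in each library against the mean log2 CPM of pan-leukocyte markers, fibroblast markers and interferon-gamma response genes, with points coloured by group. C3ar1 is highest in exercised TME libraries 8 and 9, where leukocyte markers are highest, and C1s1 is highest in sedentary cancer library 10.

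Exercise was compared with the sedentary state within each sort, to ask whether the complement transcripts of TME or cancer cells changed. No gene passed the threshold in TME cells (0 of 16273 tested, 0%) or in cancer cells (0 of 15096, 0%), so none of the 9 was called. At an unadjusted p under 0.05 there were 1373 genes in TME cells and 1901 in cancer cells. The 95% intervals below give the sizes that these libraries do not resolve.

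C4b had the clearest shift in TME cells. All 4 exercised libraries, at 445 to 562 CPM, lay above all 4 sedentary libraries, at 230 to 369 CPM, and the means were 511 ± 50.7 CPM and 309 ± 58.0 CPM (SD, n = 4 each). The share of all genes that separate these groups in the same way was not counted. The log2 fold change of 0.68 ± 0.15, 1.61-fold with a 95% interval from 0.35 to 1.02 on the log2 scale, had the rank 16 by p among 16273 genes (unadjusted p = 0.000826) and an adjusted p of 0.586. DESeq2 called it at an adjusted p of 0.0326, as 1 of 41 genes (0.262% of those it tested), and limma voom gave an adjusted p of 0.143. The fold change was 0.80 ± 0.17 without exercised libraries 8 and 9, 0.75 ± 0.15 after adjustment for the pan-leukocyte level, 0.70 ± 0.16 after adjustment for the fibroblast level and 0.56 ± 0.16 without sedentary libraries 4 and 6. The fit without libraries 8 and 9 was chosen after the data were seen, and the part of leukocyte content in this shift was not tested. Beside it, the 22 interferon-gamma response genes summed to 2353 to 3157 CPM in exercised and 1711 to 2400 CPM in sedentary TME libraries, with all 21 tested above 0, 0 called and a median log2 fold change of 0.49, and their part in the C4b shift was not tested.

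C3, C1ra and C1s1 had means in the same direction in TME cells with smaller differences. C3 averaged 554 ± 99.4 CPM in exercised and 445 ± 120 CPM in sedentary TME cells, a log2 fold change of 0.27 ± 0.19. C1ra averaged 55.8 ± 10.1 and 45.2 ± 5.62 CPM (0.26 ± 0.16), and C1s1 averaged 49.8 ± 8.02 and 38.3 ± 7.84 CPM (0.34 ± 0.17). The groups overlapped for each of these genes, and adjusted p ran from 0.592 to 0.666. C3 stood at a median of 105% of C4b in exercised and 140% in sedentary TME libraries.

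Serping1 averaged 36.3 ± 17.3 CPM in exercised and 38.2 ± 18.4 CPM in sedentary TME cells, with a log2 fold change of -0.10 ± 0.43. C2 averaged 1.33 ± 0.502 CPM in exercised and 1.38 ± 0.671 CPM in sedentary TME cells (-0.09 ± 0.50). Cfb gave 1.68 ± 1.12 at 0.668 ± 0.470 CPM in exercised and 0.184 ± 0.351 CPM in sedentary TME cells. Their intervals, from -1.19 to 1.02 for C2, -1.09 to 0.88 for Serping1 and -0.76 to 4.13 for Cfb, leave the direction undecided. The sedentary mean of Cfb rested on library 6, with 18 counts where the others had 0 or 1. The fitted value was 5.22 ± 1.23 without that library and 1.21 to 2.01 without any other. Without library 6, Cfb passed the filter on low counts only through exercised libraries, where it is higher, so nothing is drawn from that value.

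C3ar1 averaged 78.2 ± 65.0 CPM in exercised and 24.2 ± 6.39 CPM in sedentary TME cells, and C5ar1 averaged 113 ± 93.4 and 40.7 ± 5.51 CPM. These means rested on exercised libraries 8 and 9, which lay above all sedentary libraries for both receptors, whereas library 7 lay below all of them and library 10 within their range. The log2 fold changes were 1.61 ± 0.69 for C3ar1 (adjusted p = 0.586) and 1.39 ± 0.60 for C5ar1 (adjusted p = 0.586). Without libraries 8 and 9 they were -0.10 ± 0.28 and -0.08 ± 0.18, and after adjustment for the pan-leukocyte level 0.18 ± 0.14 and 0.23 ± 0.16. The 12 macrophage markers moved with them, at 1841 to 8960 CPM summed in exercised and 2088 to 2642 CPM in sedentary TME libraries, with none at 0 in any library. The part of leukocyte content in the receptor values was not tested.

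**Figure D5:**
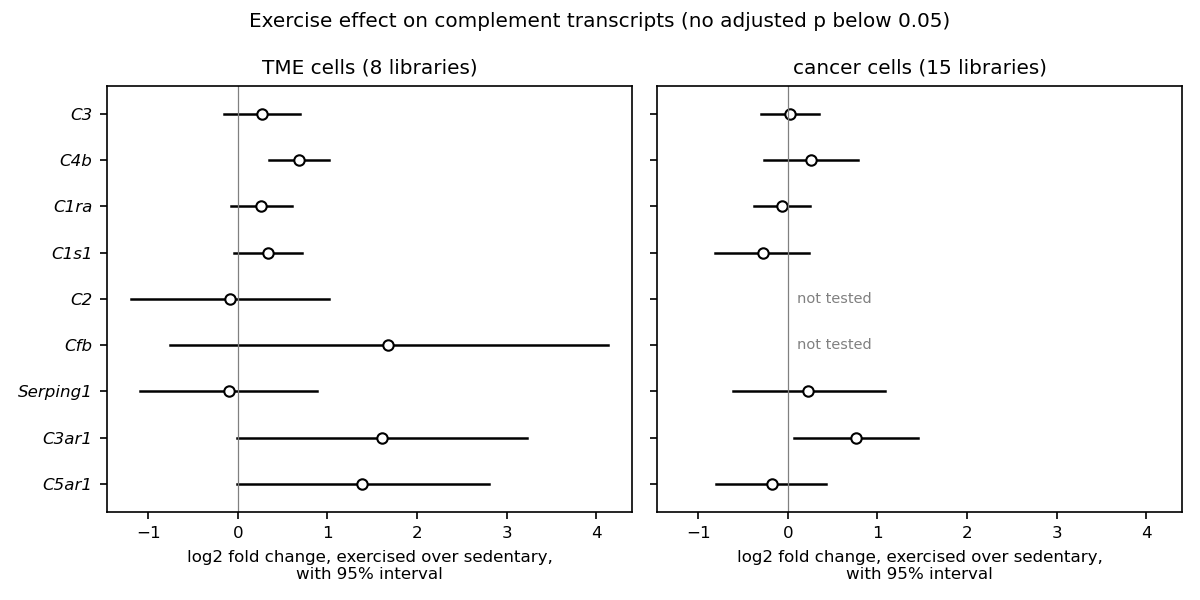
Log2 fold change, exercised over sedentary, with its 95% interval for each of the 9 transcripts in TME cells and in cancer cells. No adjusted p was below 0.05. In TME cells C4b has the interval farthest from 0, and C2 and Cfb fell below the filter on low counts in cancer cells.

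In cancer cells 7 of the 9 genes passed the filter on low counts. C3 averaged 514 ± 105 CPM in exercised and 499 ± 129 CPM in sedentary cells, with a log2 fold change of 0.03 ± 0.15 and a 95% interval from -0.30 to 0.35. C1ra averaged 41.6 ± 7.18 and 43.0 ± 12.4 CPM (-0.07 ± 0.15) and C1s1 averaged 39.6 ± 6.37 and 47.6 ± 25.0 CPM (-0.28 ± 0.25). The C1s1 value rested on sedentary cancer library 10, without which it was -0.01 ± 0.14. C4b averaged 318 ± 109 and 263 ± 97.3 CPM (0.26 ± 0.24), Serping1 averaged 3.41 ± 1.79 and 2.85 ± 1.95 CPM (0.23 ± 0.40), and C5ar1 averaged 3.07 ± 0.887 and 3.47 ± 1.89 CPM (-0.18 ± 0.30). All of these groups overlapped, and adjusted p ran from 0.681 to 0.961.

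C3ar1 in cancer cells averaged 3.13 ± 1.70 CPM after exercise and 1.83 ± 0.930 CPM in sedentary mice, with 6 of 7 exercised libraries above the sedentary mean and 2 above every sedentary library. The log2 fold change was 0.76 ± 0.33 (unadjusted p = 0.0319, adjusted p = 0.356). After adjustment for the pan-leukocyte level it was 0.00 ± 0.32. The pan-leukocyte markers include Lcp1 and Cd53, which are among the genes nearest to C3ar1, and the part of leukocyte content was not tested. The summed level of those markers was 87.8 to 166 CPM in exercised and 67.7 to 109 CPM in sedentary cancer libraries.

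The exercise effect was also compared between the sorts. For no gene did the difference, the effect in TME cells minus that in cancer cells, pass the threshold (0 of 17503, 0%, with 1316 at an unadjusted p under 0.05). For C4b it was 0.41 ± 0.36 on the log2 scale (adjusted p = 0.836), so the shift of C4b was not shown to be particular to TME cells. For C5ar1 it was 1.55 ± 0.63 (adjusted p = 0.601), for C3ar1 0.82 ± 0.72 (adjusted p = 0.836) and for Cfb 3.54 ± 1.65 (adjusted p = 0.643). Without sedentary TME library 6 the difference for Cfb was 7.05 ± 1.89. In that fit Cfb passed the filter on low counts only through exercised TME libraries, so nothing is drawn from the value. For C3 it was 0.23 ± 0.26, for C1ra 0.30 ± 0.24, for C1s1 0.60 ± 0.37 (0.32 ± 0.23 without sedentary cancer library 10), for C2 0.13 ± 0.78 and for Serping1 -0.35 ± 0.66.

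Of all 35 complement genes tested in TME cells 30 had an exercise effect above 0, with a median of 0.65, against 51.3% above 0 and a median of 0.01 over all genes, and none was called. Beside this, all 10 pan-leukocyte markers (median 1), all 12 macrophage markers (1.15) and all 6 mast cell markers (1.49) were above 0, and the leukocyte markers were highest in exercised TME libraries 8 and 9. The part of leukocyte content in the shift of the complement genes was not tested. C5ar2, the other C5a receptor, was with C4b among the 3 smallest p-values (1.47 ± 0.45, unadjusted p = 0.007, adjusted p = 0.586). In cancer cells 20 of 30 were above 0, with a median of 0.22, against 47.4% above 0 and a median of -0.01 over all genes. Here 9 of 10 pan-leukocyte markers (median 0.48), 9 of 12 macrophage markers (0.52) and all 5 mast cell markers tested (0.84) were above 0, and their part in the complement values was not tested. The smallest p-values there were those of C6 (1.69 ± 0.46, adjusted p = 0.156), Itgam, the alpha chain of complement receptor 3 (0.71 ± 0.25, adjusted p = 0.26), and Cfd (0.60 ± 0.22, adjusted p = 0.279).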

How the data were processed

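Polyadenylated RNA of sorted cells was extracted with Trizol, and the library kit was KAPA Standard mRNA-Seq, per the labels' protocols. Per the submitters' processing notes, STAR and featureCounts were used with the mm10 build. No source used here gives versions, the annotation, the strand setting or the treatment of reads in shared bases or with several alignments. Raw counts for 48397 symbols in 23 library columns, all used, were deposited by the authors.

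Tests used edgeR 4.0.16 under R 4.3.3, by filterByExpr, TMM scaling and the robust quasi-likelihood test, two-sided, with Benjamini-Hochberg adjustment over all genes tested and a threshold of 0.05. The difference between the sorts and the difference of the exercise effects were fitted on all 23 libraries in 4 groups, and the exercise effects on the 8 TME and on the 15 cancer libraries. No covariate or block was used, as no batch and no pairing of mice by number is labelled. Errors of fold changes are standard errors of the fit, 95% intervals use its degrees of freedom, and errors of CPM are SD over libraries. Log2 CPM uses a prior count of 2. The 9 genes and all lists were chosen with earlier results of these data known. Named genes are the 9, up to 3 called complement genes per role with the smallest p, the 3 smallest p over all roles where none was called, and the 3 genes most like each of the 9, whose log2 CPM averaged at least 1. From the last, predicted, ribosomal and mitochondrial genes were left out by their symbols. This kept Fau, which encodes a ribosomal protein under another symbol. The rule also names 2 genes that enter every count but are not described here.

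Alternatives were DESeq2 1.42.0, limma 3.58.1 voom with quality weights, RLE factors, a replicate block, no filter on low counts, a filter at a mean CPM of 1, marker levels as covariates, all libraries in 1 fit, sedentary TME libraries 4 and 6 left out, and each library left out. Leaving out exercised TME libraries 8 and 9, or mitochondrial genes, and counting calls over genes that pass the filter in each sort alone, were chosen after the data were seen. Scripts were tested on simulated data. Coordinates are those of GENCODE M21, and promoters those of RefSeq GRCm38.p6. Permutations used scipy 1.17.1 with 100000 resamples.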

Additional observations from a re-analysis of the deposited data

Results flagged for a closer look

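Of 36 sets of libraries (9 genes in 4 groups), 4 had a library far from the others of its group by Dixon's test, and chance flags about 1 in 20. C1s1 was at 105 CPM in sedentary cancer library 10, with the next at 50.7 CPM. C1ra was at 56.2 CPM in exercised cancer library 10, with the next at 43.3 CPM. Cfb was at 0.711 CPM in sedentary TME library 6, with the next at 0.0261 CPM, and at 0.103 CPM in exercised cancer library 10, with the next at 0.0391 CPM, which are differences of a few counts in the cancer sort.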

How the results depend on the processing

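Serping1, C3ar1 and C5ar1 stayed higher in TME cells past the threshold in every alternative run, with log2 fold changes of 3.41 to 3.84, 3.33 to 4.53 and 3.65 to 4.74. C4b stayed between 0.41 and 0.59, with adjusted p of 0.00737 to 0.0692. The number of genes called between the sorts was 7360 to 9738, and 8599 to 9427 with 1 library left out. In cancer cells exercise gave 161 calls with DESeq2, 196 with limma voom, 28 without a filter, 1 with all 23 libraries in the fit, and 0 to 43 with 1 library left out, the 43 without sedentary cancer library 4. In TME cells it gave 41 with DESeq2 and 6 without a filter. The difference of the effects gave 2 with DESeq2, 36 with limma voom, 14 with the replicate block and 0 to 52 with 1 library left out, the 52 without exercised TME library 7. Of the 9 genes, C4b in TME cells with DESeq2 was the only exercise call in the alternatives run.

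Values near 0 changed sign. C3 between the sorts was 0.01 with DESeq2, 0.01 with RLE factors, 0.05 with limma voom, 0.03 at a mean CPM of at least 1, 0.14 without sedentary TME libraries 4 and 6, and -0.08 to 0.09 with 1 library left out, and C1s1 was -0.04 to 0.15. With 1 library left out, exercise in cancer cells gave -0.04 to 0.11 for C3, -0.15 to 0.03 for C1ra and -0.31 to 0.04 for C5ar1, exercise in TME cells gave -0.39 to 0.25 for C2 and -0.51 to 0.25 for Serping1, and the difference of effects gave -0.12 to 0.48 for C2 and -0.70 to 0.02 for Serping1. Limma voom gave 0.27 for C5ar1 in cancer cells and -0.03 for C2 in the difference. With the pan-leukocyte covariate C3 was -0.14 and C4b -0.01 in cancer cells, and C2 was 0.16 and Serping1 0.12 in TME cells. Without exercised TME libraries 8 and 9 the exercise effect in TME cells was -0.10 for C3ar1, -0.08 for C5ar1, 0.23 for C2 and 0.23 for Serping1, and the difference was -0.88 for C3ar1. The cause of these changes was not tested.

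Libraries of equal number deviated together in 3 of 3 exercised pairs of TME and cancer libraries (r = 0.193 to 0.383), 1 of 4 sedentary pairs, 1 of 5 cancer pairs across treatments and 1 of 2 TME pairs, while differently numbered pairs had medians of -0.086 to -0.012. The best match was sought only among libraries that have a partner of equal number in the same comparison. There, libraries correlated best with their own number in 5 of 6 cases in the exercised pairs and 4 of 8 in the sedentary pairs. Across treatments this held in 4 of 4 cases in TME pairs and 2 of 10 in cancer pairs. The 4 of 4 rests on that limit. Over all libraries, exercised TME library 10 had a higher r with sedentary library 6 (0.194) than with sedentary library 10 (0.033). Sedentary TME library 10 in turn had a higher r with exercised library 7 (0.118). Among differently numbered pairs of exercised TME and cancer libraries, 8 of 25 also had an r over 0.1, up to 0.362. The labels do not state a pairing, and this check does not settle whether the numbers pair the libraries. The replicate block changed no call of the 9 genes. With it C3 was 0.01 between the sorts, -0.18 in cancer cells and -0.13 in TME cells, C1s1 was -0.01 between the sorts and -0.01 in TME cells, C1ra was -0.01 and C2 0.10 in TME cells, C4b was -0.05 in cancer cells, and the difference was -0.50 for C2 and -0.75 for Cfb.

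With 0 to 11 counts of C2 and 0 to 8 of Cfb in cancer libraries, depth limits both genes there.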
